A study of Mus musculus with 12 samples.

Results

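The 8 genes followed here code for the claudins *Cldn3*, *Cldn4*, *Cldn6* and *Cldn7* and the simple epithelial keratins *Krt7*, *Krt8*, *Krt18* and *Krt19*. They were chosen by name among the 46517 genes counted in each sample, and all 8 passed the filter on low values and were tested with 15673 genes in all. The study asked how loss of *Meteor*, an enhancer upstream of *Eomes* that is active in mouse embryonic stem cells (ESCs) and gives rise to a long non-coding RNA, alters differentiation. RNA-Seq counts came from 12 samples, 3 in each of WT d0, KO d0, WT d3 and KO d3. All of them carried an EGFP reporter in *Eomes* on a C57BL/6 background. WT d0 and KO d0 were undifferentiated ESCs grown on mouse embryonic fibroblast feeders, without and with a CRISPR-Cas9 deletion of *Meteor*. WT d3 and KO d3 were the same cells at day 3 of a cardiac differentiation in hanging drops, where they form embryoid bodies. KO cells were grown from picked ESC clones, and the sources used here do not say which clone was sequenced, so the deletion and the clone cannot be told apart.

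Claudins span the membrane in tight junctions, where their strands seal the gap between neighbouring epithelial cells and set which ions pass. Keratins form the intermediate filaments of epithelial cells from pairs of a type I and a type II chain. *Krt8* and *Krt7* are type II chains, *Krt18* and *Krt19* are type I chains, and the pair *Krt8* and *Krt18* is the first to appear in the embryo, in the trophectoderm. Undifferentiated ESCs resemble the early epiblast. At gastrulation, epiblast cells that enter mesoderm pass through the primitive streak by an epithelial to mesenchymal transition (EMT).

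The genes lie on 4 chromosomes (GRCm38, GENCODE M21 gene bounds). *Cldn4* (chr5:134945119-134946934, minus strand) and *Cldn3* (chr5:134986214-134987472, plus strand) are neighbours, 39279 bases apart, and each has 1 exon. *Krt8* (chr15:101996698-102004482, minus strand) and *Krt18* (chr15:102028180-102032027, plus strand) are separated by 23697 bases, with *Krt7* further along the same chromosome (chr15:101411043-101430313, plus strand). *Cldn7* (chr11:69964779-69967885, plus strand) and *Krt19* (chr11:100140810-100148665, minus strand) are on chromosome 11 and *Cldn6* (chr17:23679249-23682446, plus strand) is on chromosome 17. An antisense gene, *Wbscr25*, overlaps *Cldn3* and had at most 7 reads in any group of 3 samples. Of the 100-base words in *Krt8* transcripts, 17.1% also occur in 2 other annotated genes, *Krt8-ps* and *Gm36026*, so reads from there align to more than 1 place and are not counted. No such word was shared for the other 7 genes.

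The 2 neighbouring pairs are shown by sequence upstream of their starts, because their members had different calls at day 3 (RefSeq starts on GRCm38.p6, 5′ to 3′ on the strand of the gene, without any base that GENCODE places in an exon). Capitals mark the E2-box, CAGGTG or its reverse complement CACCTG, the letters bound by Snail and Zeb repressors. The windows are chr5:134946935-134947184 for *Cldn4*, chr5:134985964-134986213 for *Cldn3*, chr15:102027966-102028179 for *Krt18* and chr15:102004483-102004592 for *Krt8*.
Cldn4: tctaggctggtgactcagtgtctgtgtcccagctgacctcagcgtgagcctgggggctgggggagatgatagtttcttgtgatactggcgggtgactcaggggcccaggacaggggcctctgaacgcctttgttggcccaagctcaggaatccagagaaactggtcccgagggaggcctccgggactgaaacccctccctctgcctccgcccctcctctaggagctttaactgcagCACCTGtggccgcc
Cldn3: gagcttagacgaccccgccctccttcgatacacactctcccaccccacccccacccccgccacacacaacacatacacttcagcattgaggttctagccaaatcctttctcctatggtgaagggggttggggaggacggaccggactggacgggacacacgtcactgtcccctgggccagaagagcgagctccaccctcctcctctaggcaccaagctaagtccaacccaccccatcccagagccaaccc
Krt18: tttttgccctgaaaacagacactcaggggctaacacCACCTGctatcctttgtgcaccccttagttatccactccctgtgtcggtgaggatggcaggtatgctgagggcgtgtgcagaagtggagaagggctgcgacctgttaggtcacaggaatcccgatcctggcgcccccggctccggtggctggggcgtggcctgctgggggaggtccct
Krt8: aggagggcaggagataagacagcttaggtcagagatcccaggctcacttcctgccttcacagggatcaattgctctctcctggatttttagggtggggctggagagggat

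An E2-box stood 9 to 14 bases before the start of *Cldn4* and 209 to 214 bases before the RefSeq start of *Krt18*. RefSeq windows were at hand for 7 of the 8 genes, in 8 windows because *Cldn7* has 2 starts. Over the full 250 bases before each start, 6 of the 8 windows held an E2-box, for *Cldn4*, *Cldn6*, *Cldn7*, *Krt7*, *Krt8* and *Krt18*, against 17.2% of the 32851 windows of all genes. In *Krt8* it lay 106 to 111 bases before the RefSeq start, in bases that GENCODE counts as exon. For *Cldn6*, *Cldn7* and *Krt7* too, no E2-box stood upstream of the first base that GENCODE places in an exon. Only the boxes of *Cldn4* and *Krt18* did, and the 17.2% covers full windows that were not trimmed in this way. AACNNGTT, the letters of Grainyhead-like factors, was in none of the 8 windows and in 3.64% of all windows. TGANTCA (AP-1) was in 1 of 8, that of *Cldn4*, against 6.75%, GGAATG (TEAD) in 1 of 8 against 12.6%, GGGCGG (the GC box) in 5 of 8 against 32.7%, and TATAAA in none against 12.4%, all on both strands. These matches describe the letters only.

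Between 17455927 and 23910943 reads per sample fell on genes, so that 1 CPM (reads scaled to library size, with TMM factors) stands for close to 20 reads. Of the annotated genes at the *Meteor* locus, 2610509F24Rik had 217 reads over the WT d0 samples, 195 over WT d3 and 0 in KO d0 and KO d3. *Platr11* had 205 reads over WT d0, 96 over WT d3, 2 over KO d0 and 0 over KO d3. 1 of the WT d3 samples, replicate 3, stood apart from the other 2, with 626 CPM summed over 14 primitive and visceral endoderm markers against 223 and 207. Its sum was lower for 7 primitive streak and mesoderm markers (838 CPM against 1688 and 1515) and for 6 pluripotency markers (596 CPM against 1109 and 1119). Samples of the same number and day deviated together. The fit with that number as a block within each day is given where it changes a call of the 8 genes. It is also given where it changes the count of a list for KO against WT. The data are from bulk samples, so fewer cells of a type and less RNA per cell cannot be told apart.

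In undifferentiated ESCs 4 of the 8 genes were lower in the *Meteor* KO. *Krt8*, *Krt18*, *Cldn6* and *Cldn7* passed the test (edgeR quasi-likelihood test, Benjamini-Hochberg adjusted p below 0.05 over all 15673 genes), as did 10.9% of all genes in that direction. All 8 fitted values were negative (that of *Cldn4* was 0.49 without WT d0 replicate 1) and none of the 8 was higher, against 9.56% of all genes. The median log2 fold change of the 8 was -1.61, beside -0.01 over all genes tested. With the block within each day, *Cldn3* and *Krt19* passed too, which makes 6 of 8 lower (18.0% of all genes lower and 16.8% higher in that fit).

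*Krt8* measured 52.47, 37.21 and 71.81 CPM in the WT d0 samples and 16.87, 12.73 and 11.29 CPM in KO d0. The partner gene *Krt18* measured 37.02, 25.89 and 43.49 CPM in WT d0 and 8.85, 6.83 and 6.13 CPM in KO d0. For both genes each KO sample was below each WT sample. *Krt8* fell by 1.90 on the log2 scale (SE 0.34, edgeR adjusted p = 0.00386) and *Krt18* fell by 2.24 (SE 0.34, edgeR adjusted p = 0.00199), in 3 of 3 pairs of the same number.

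*Krt19*, a type I keratin without a tail domain, measured 38.60, 16.28 and 28.53 CPM in WT d0 and 13.67, 5.40 and 4.49 CPM in KO d0. The groups did not overlap, yet its log2 fold change of -1.85 (SE 0.70) missed the threshold (edgeR adjusted p = 0.0912). WT exceeded KO 2.82-, 3.01- and 6.35-fold in the 3 pairs, and with the block within each day the edgeR adjusted p was 1.99e-04 at a log2 fold change of -1.89. *Krt7* was scarce, at 3.39, 0.99 and 0.95 CPM in WT d0 and 1.34, 0.99 and 0.51 CPM in KO d0, which is 10 to 62 reads a sample. Its log2 fold change of -0.82 (SE 0.54, edgeR adjusted p = 0.326) did not pass.

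Among the claudins, *Cldn7*, which is found along the lateral membrane of epithelial cells as well as in tight junctions, measured 16.76, 6.16 and 15.48 CPM in WT d0 and 4.65, 0.77 and 1.69 CPM in KO d0. *Cldn6*, a claudin of embryonic epithelia, measured 52.69, 27.35 and 56.22 CPM against 28.80, 14.33 and 13.33 CPM. *Cldn7* was lower in every KO sample, whereas for *Cldn6* the highest KO value passed the lowest WT value. *Cldn7* fell by 2.45 on the log2 scale (SE 0.49, edgeR adjusted p = 0.00714) and *Cldn6* fell by 1.23 (SE 0.34, edgeR adjusted p = 0.0285). Leaving out WT d0 replicate 1 or 3, or KO d0 replicate 2 or 3, took *Cldn6* past the threshold, to an edgeR adjusted p between 0.0917 and 0.11.

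*Cldn3* was scarce in ESCs, at 3.60, 1.25 and 1.59 CPM in WT d0 and 1.57, 0.66 and 0.31 CPM in KO d0, and its log2 fold change of -1.38 (SE 0.64) gave an edgeR adjusted p = 0.162. In the fit with the block within each day the value was -1.39 with an edgeR adjusted p = 0.0153. *Cldn4* measured 59.95, 17.69 and 26.58 CPM in WT d0 and 41.13, 17.36 and 22.78 CPM in KO d0. The *Cldn4* groups overlapped almost fully, with a log2 fold change of -0.34 (SE 0.53, edgeR adjusted p = 0.704). It was the highest of the 8 genes per length in KO d0, at 14.9 ± 6.9 CPM per kb (SD, n = 3), and the fourth in WT d0, at 19.1 ± 12.3 CPM per kb.

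**Figure D1:**
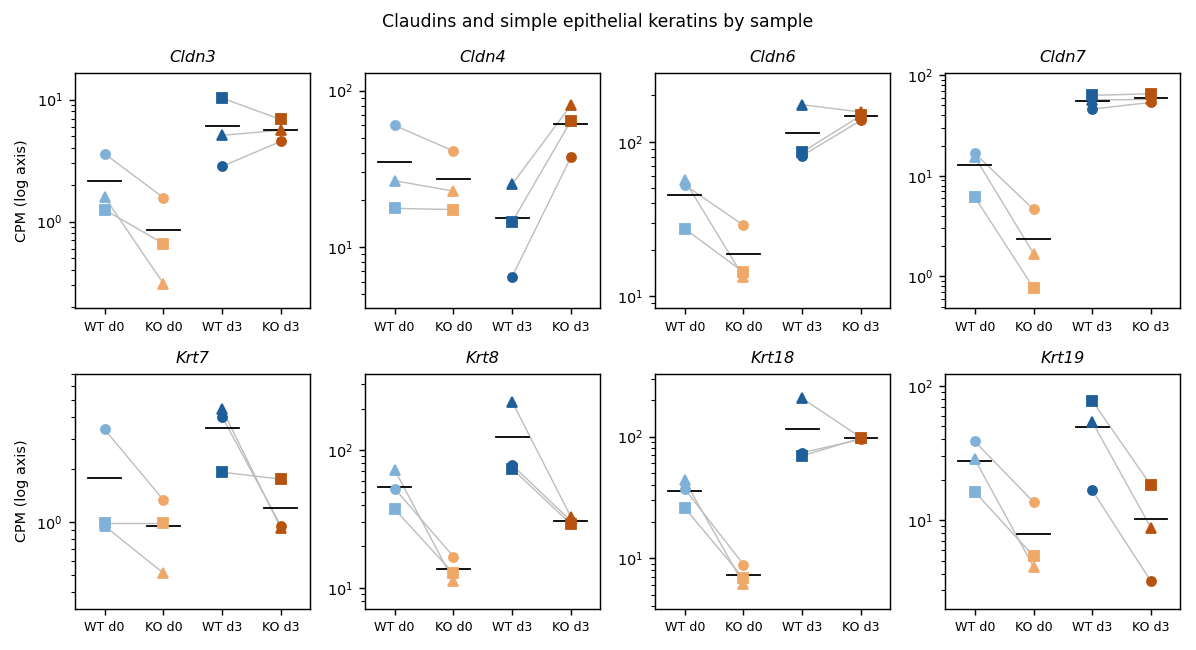
CPM of each gene (log axis) in the 4 groups of 3 samples, with circles, squares and triangles for replicates 1, 2 and 3, black bars for group means and grey lines between WT and KO samples of the same number and day. *Krt8* and *Krt18* are low together in KO d0, and in KO d3 *Krt18* lies between 94.78 and 97.94 CPM while *Krt8* lies between 29.06 and 32.68 CPM.

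At day 3 the called genes lay in both directions. *Cldn4* was higher in the KO, *Krt8* and *Krt19* were lower, and the other 5 did not pass the test. In this comparison 14.3% of all genes were higher and 16.7% lower, so the members' counts of 1 and 2 lie near the background. Without WT d3 replicate 3 they were 1 higher and 1 lower. Their median log2 fold change was -0.10, beside 0.00 over all genes. With the block within each day *Krt7* was lower too, which makes 3 lower and 1 higher (24.4% and 22.5% of all genes in that fit).

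*Cldn4*, a claudin that lowers the passage of sodium, measured 6.48, 14.49 and 25.25 CPM in WT d3 and 37.54, 64.09 and 80.80 CPM in KO d3. Each KO sample was above each WT sample, and KO exceeded WT 5.79-, 4.42- and 3.2-fold in the 3 pairs. The log2 fold change was 2.01 (SE 0.55, edgeR adjusted p = 0.0206), and without KO d3 replicate 2 or 3 the edgeR adjusted p was 0.0908 or 0.0831. *Cldn3*, its neighbour on chromosome 5, measured 2.84, 10.30 and 5.10 CPM in WT d3 and 4.55, 6.88 and 5.62 CPM in KO d3. The groups of *Cldn3* overlapped, at a log2 fold change of -0.07 (SE 0.54, edgeR adjusted p = 0.939).

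*Cldn6* measured 81.53, 85.78 and 174.05 CPM in WT d3 and 137.73, 148.31 and 156.14 CPM in KO d3, with WT replicate 3 above all KO samples and the other 2 WT samples below them. *Cldn7* measured 46.03, 63.01 and 56.78 CPM in WT d3 and 53.69, 65.34 and 57.40 CPM in KO d3, and the groups overlapped. Neither difference passed, at 0.43 (SE 0.32, edgeR adjusted p = 0.341) and 0.08 (SE 0.40, edgeR adjusted p = 0.898) on the log2 scale.

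Of the keratins, *Krt8* measured 77.79, 73.12 and 224.21 CPM in WT d3 and 30.55, 29.06 and 32.68 CPM in KO d3, and every KO sample was below every WT sample. *Krt18* measured 73.55, 69.32 and 206.02 CPM in WT d3 and 94.78, 96.84 and 97.94 CPM in KO d3, with the KO samples inside the WT range. *Krt8* fell by 1.89 on the log2 scale (SE 0.33, edgeR adjusted p = 0.00236), whereas *Krt18* changed by -0.14 (SE 0.31, edgeR adjusted p = 0.761). WT replicate 3 was close to 3 times the other WT samples in both keratins. Leaving out any 1 sample, that one included, kept the *Krt8* difference between -2.17 and -1.33, with an edgeR adjusted p of at most 0.0211.

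*Krt19* measured 16.65, 77.40 and 54.11 CPM in WT d3 and 3.50, 18.14 and 8.74 CPM in KO d3. The groups overlapped, but WT exceeded KO 4.76-, 4.27- and 6.19-fold in the 3 pairs. It fell by 2.31 on the log2 scale (SE 0.69, edgeR adjusted p = 0.0297). Without WT d3 replicate 2 or 3, or KO d3 replicate 1 or 3, the edgeR adjusted p lay between 0.0839 and 0.139. *Krt7* measured 4.01, 1.93 and 4.43 CPM in WT d3 and 0.95, 1.76 and 0.92 CPM in KO d3, without overlap. Its log2 fold change of -1.49 (SE 0.52) came with an edgeR adjusted p = 0.0515, and 0.0145 with the block within each day. The difference also passed with limma-voom (adjusted p = 0.0324) and DESeq2 (adjusted p = 0.0315), but not without WT d3 replicate 3 (edgeR adjusted p = 0.234).

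**Figure D2:**
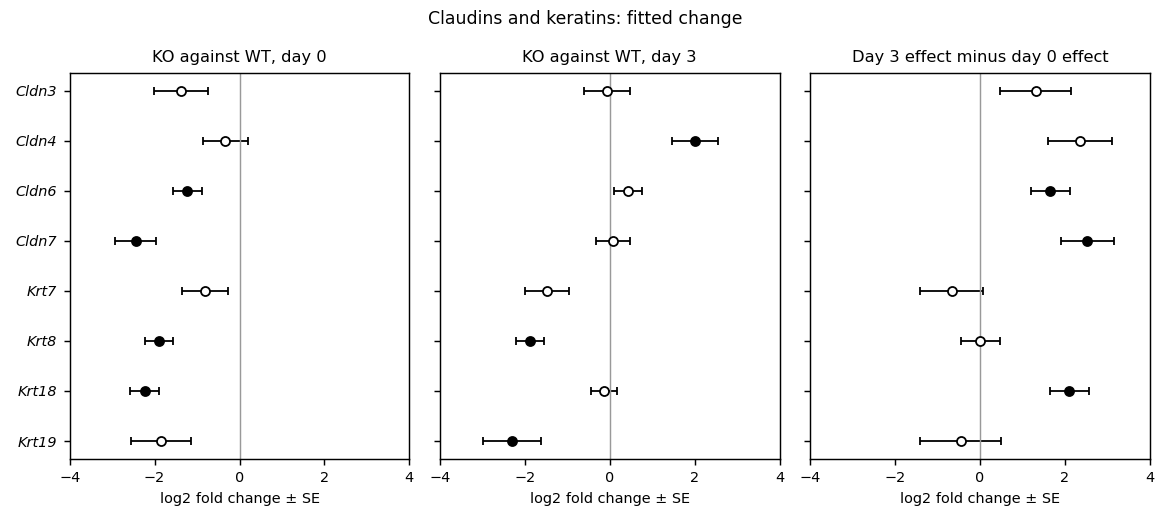
Fitted log2 fold change ± SE of each gene between KO and WT at day 0 and day 3, and the difference between these 2 effects, with filled points for an adjusted p below 0.05. At day 0 all 8 points lie at or below -0.34, and at day 3 *Cldn4* lies at 2.01 while *Krt8* and *Krt19* lie at -1.89 and -2.31.

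The KO effect itself differed between the days for 3 genes. It rose by 2.53 on the log2 scale for *Cldn7* (SE 0.63, edgeR adjusted p = 0.0245), by 2.10 for *Krt18* (SE 0.46, edgeR adjusted p = 0.0136) and by 1.66 for *Cldn6* (SE 0.46, edgeR adjusted p = 0.0373). The *Krt18* call held whichever sample was left out. *Cldn6* lost its call in 8 of the 12 fits with 1 sample left out and *Cldn7* in 6, with an edgeR adjusted p of up to 0.105 and 0.0764, both without KO d3 replicate 2. All genes showed a higher effect at day 3 in 8.21% of cases and a lower one in 7.34%, and none of the 8 was lower. For *Cldn4* the difference was 2.35 (SE 0.76, edgeR adjusted p = 0.0643) and for *Cldn3* 1.31 (SE 0.84, edgeR adjusted p = 0.323). Both passed with the block within each day (edgeR adjusted p = 1.22e-04 and 0.0364), making 5 of 8 against 16.2% of all genes. For *Krt8* the effects of -1.90 and -1.89 differed by 0.01 (SE 0.45, edgeR adjusted p = 0.99). *Krt19* and *Krt7* gave -0.46 (SE 0.96) and -0.67 (SE 0.75), neither past the threshold.

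Over the 3 days of differentiation most of the 8 genes rose in both genotypes. In WT, 5 of 8 were higher at day 3 (30.7% of all genes higher, 25.5% lower), namely *Cldn7* by 2.20 (SE 0.43), *Krt18* by 1.63 (SE 0.32), *Cldn3* by 1.51 (SE 0.59), *Cldn6* by 1.34 (SE 0.33) and *Krt8* by 1.14 (SE 0.32) on the log2 scale. Their edgeR adjusted p-values ran from 0.00168 for *Krt18* to 0.0492 for *Cldn3*. Without WT d3 replicate 3 the value for *Krt8* was 0.54 (edgeR adjusted p = 0.0651), and without WT d0 replicate 2 it was 1.05 (edgeR adjusted p = 0.05). The *Cldn3* call rested on several single samples, and its edgeR adjusted p reached 0.219 without WT d0 replicate 2. *Cldn4* was the 1 gene with a negative value in WT, -1.12 (SE 0.56, edgeR adjusted p = 0.116).

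In the KO, the same count of 5 of 8 was higher at day 3 (29.4% of all genes higher, 27.2% lower). *Cldn7* rose from 2.37 ± 2.03 to 58.8 ± 5.95 CPM (SD, n = 3), or 26.6-fold, *Krt18* from 7.27 ± 1.41 to 96.5 ± 1.6 CPM, or 13.3-fold, and *Cldn6* from 18.8 ± 8.66 to 147 ± 9.24 CPM, or 8-fold, each by the fitted value. *Cldn3* rose 7.06-fold and *Krt8* rose 2.22-fold. The *Krt8* call was lost without KO d0 replicate 3 (edgeR adjusted p = 0.0526) or KO d3 replicate 2 (edgeR adjusted p = 0.0611). *Cldn4* gave 1.22 on the log2 scale (SE 0.55, edgeR adjusted p = 0.0794), and *Krt7* and *Krt19* gave 0.43 (SE 0.56) and 0.25 (SE 0.73). These day comparisons and the KO comparisons share their samples.

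Because *Krt8* and *Krt18* build 1 filament together, their levels were set side by side per length of transcript, a comparison chosen after their values had been seen. In WT d0 the ratio of *Krt8* to *Krt18* in CPM per kb was 1.04, 1.06 and 1.21, and in KO d0 it was 1.4, 1.37 and 1.35. In WT d3 it was 0.775, 0.774 and 0.804. In KO d3 it was 0.236, 0.22 and 0.245. The ratio was close to constant within each group, even in WT d3, where the level of both genes in replicate 3 stood far above the others. On the log2 scale KO differed from WT by 0.32 at day 0 and by -1.75 at day 3, and the groups did not overlap on either day. The exact permutation test over 3 against 3 samples (two-sided) gave p = 0.10 on each day, the smallest value that this design allows. The 17.1% of *Krt8* words that align elsewhere lower its counted level in every sample, so a ratio of 1 is no mark of equal RNA.

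**Figure D3:**
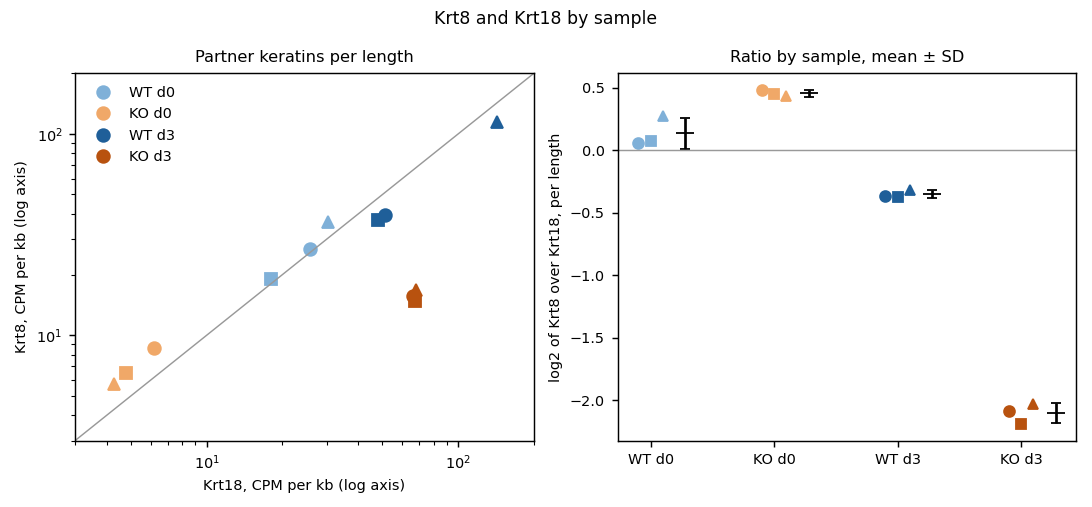
Left, *Krt8* against *Krt18* in CPM per kb (log axes) in the 12 samples, with the line of equal values. Right, the log2 ratio by sample with mean ± SD (n = 3), which is -0.35 ± 0.03 in WT d3 and -2.10 ± 0.08 in KO d3.

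Per length, the order of the 8 genes changed with day and genotype. In WT d0 *Krt8* (27.5 ± 8.87 CPM per kb, SD, n = 3), *Cldn6* (26.4 ± 9.15), *Krt18* (24.7 ± 6.22), *Cldn4* (19.1 ± 12.3) and *Krt19* (15 ± 6.02) differed from their neighbours by less than the spread. *Cldn7* (6.57 ± 2.97) stood below them, and *Cldn3* (1.71 ± 1.01) and *Krt7* (0.252 ± 0.197) came last. In WT d3 *Krt18* (80.8 ± 53.9), *Cldn6* (66.1 ± 30.3) and *Krt8* (64 ± 44.2) led and could not be ranked within their spread. In KO d3 the order was *Cldn6* (85.6 ± 5.37), *Krt18* (67.2 ± 1.11), *Cldn4* (33.5 ± 12) and *Cldn7* (30.2 ± 3.01), then *Krt8* (15.7 ± 0.954). *Cldn4* and *Cldn7* were not distinguishable there, and they change places when the longest transcript is used as length. Summed over the 4 claudins, KO d3 held 154 ± 19.5 CPM per kb and WT d3 108 ± 36.5, and summed over the 4 keratins 88.5 ± 4.43 and 172 ± 101. The WT d3 sum of the keratins was 100, 127 and 288 CPM per kb in replicates 1, 2 and 3, so its mean rests on replicate 3.

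*Cldn6*, *Cldn7* and *Krt18* had the most similar patterns among the 8 (Pearson r of log2(CPM + 1) over 12 samples 0.95 to 0.97), whereas *Cldn4* had no r above 0.31 with any other member. *Krt8* and *Krt18* gave r = 0.78. Outside the 8, the genes most like *Cldn7* were *Prom1* (0.993), *Soat1* (0.992) and *Setbp1* (0.991), those most like *Krt18* were *Lrrfip1* (0.988), *Suv39h1* (0.985) and *Mfap4* (0.983), and those most like *Krt8* were *Fhl1* (0.988), *Gpc3* (0.979) and *Lcp1* (0.975). *Gpc3* had a mean of 288 CPM in WT d3 and 41 CPM in KO d3. *Cldn6* lay nearest to *Notch3* (0.980), *Ankrd50* (0.979) and *Dpp6* (0.979), and *Cldn3* to *Baiap2l1* (0.983), *Fam50a* (0.971) and *Orai3* (0.970). For *Cldn4* these were *Pip4p1* (0.938), *Foxo1* (0.922) and *Barx2* (0.922), for *Krt7* *Trafd1* (0.929), *Efcab10* (0.906) and *Kcnn3* (0.900), and for *Krt19* *Maml1* (0.941), *Mtmr3* (0.931) and *Ap2b1* (0.931). The 12 samples share 4 groups, so these values describe mainly the group means.

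Other claudins and keratins were mostly silent. Beside the counts of this and every list below, 9.56% of all genes were higher and 10.9% lower at day 0. At day 3 these shares were 14.3% and 16.7%. With the block within each day they were 16.8% and 18.0% at day 0, and 22.5% and 24.4% at day 3. Of 20 other claudins 7 were tested, and at day 0 *Cldn1* alone was called, lower in the KO by -2.15 (SE 0.41, edgeR adjusted p = 0.00521) on the log2 scale, at 2.03 ± 0.901 CPM in WT d0 and 0.45 ± 0.259 in KO d0. At day 3 *Cldn12*, which was expressed at 57.4 ± 4.31 CPM already in WT d0, was the 1 other claudin called, lower by -0.47 (SE 0.11, edgeR adjusted p = 0.0109). It lost the call without WT d3 replicate 2 (edgeR adjusted p = 0.0523) or KO d3 replicate 3 (edgeR adjusted p = 0.0768). Blocking within each day gave 2 other claudins that were lower. *Cldn2*, *Cldn5* and *Cldn11* passed the filter only through WT d3 replicate 3. Among 21 other keratins 7 were tested. *Krt42* and *Krt17*, type I keratins next to each other in the type I cluster, were higher in KO d0, at 43.9 ± 3.98 and 37.6 ± 8.18 CPM against 15.3 ± 1.22 and 13.7 ± 1.19 CPM in WT d0, and *Krt12* was lower, at 0.162 ± 0.00792 against 1.52 ± 0.641 CPM. *Krt12* passed the filter only through WT d0, the group where it was high. At day 3 *Krt42* and *Krt17* were below 1 CPM on average in both genotypes. *Krt42* alone was called there, with a log2 fold change of 1.33 (SE 0.28, edgeR adjusted p = 0.00593). The median log2 fold changes were -0.39 and -0.79 for the other claudins and -0.16 and 0.17 for the other keratins, at day 0 and day 3. Without WT d3 replicate 3 only 4 other claudins were tested, and their day 3 median was 0.36.

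The partners of claudins in the tight junction were all tested, 20 of 20. At day 0, 5 were lower in the KO and 2 higher. *Marveld2* (tricellulin, which sits where 3 cells meet) had 9.66 ± 2.1 CPM in WT d0 and 2.65 ± 0.524 in KO d0, and *Marveld3* 4.33 ± 1.62 and 1.06 ± 0.639. *Jam3*, *Cgn* (cingulin) and *Patj* were the other 3 that were lower, while *Jam2* and *Prkci* (atypical protein kinase C iota) were higher, by 1.29 (SE 0.16) and 0.60 (SE 0.07) on the log2 scale. At day 3, 7 were higher and 3 lower, with *Jam2* and *Prkci* higher again by 1.37 (SE 0.19) and 0.65 (SE 0.07). *Mpp5* (PALS1), *Magi3* and *Cxadr* were lower. The median log2 fold change of the list was -0.23 at day 0 and 0.42 at day 3, beside -0.01 and 0.00 over all genes, and 6 of 20 had a higher KO effect at day 3 than at day 0 and none a lower one, *Ocln* (occludin) and *Marveld2* among them at 0.99 (SE 0.29) and 1.99 (SE 0.23). With the block within each day, 11 were lower and 2 higher at day 0, 10 were higher and 5 lower at day 3, and 12 had a higher effect at day 3. Of all genes, 8.21% had a higher effect at day 3, and 16.2% with the block within each day.

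In adherens junctions and desmosomes, 19 of 20 genes were tested, and 5 were lower and 2 higher in KO d0. *Cdh1*, E-cadherin, fell by 0.73 (SE 0.11, edgeR adjusted p = 0.00216) on the log2 scale, from 724 ± 54.6 to 436 ± 59.7 CPM. *Cdh3*, *Epcam*, *Ppl* and *Evpl* were also lower, and *Dsg2* and *Ctnna1* were higher. At day 3, 6 were higher and 2 lower. *Cdh3*, P-cadherin, had 52.9 ± 4.99 CPM in KO d3 against 18 ± 2.05 in WT d3, and *Cdh1* 737 ± 73.9 against 575 ± 28. *Jup* (plakoglobin, shared by both junctions) was higher by 0.53 (SE 0.11, edgeR adjusted p = 0.00709). The 2 that were lower belong to the desmosome, where keratin filaments are anchored, but the other desmosome genes of the list were not called lower in this fit. *Dsp* (desmoplakin, which binds keratins) fell by 1.85 (SE 0.28, edgeR adjusted p = 0.00115) and *Perp* fell by 1.70 (SE 0.17, edgeR adjusted p = 1.47e-04). *Dsp* ranged from 66.5 to 178 CPM in WT d3, and its change from -2.15 to -1.44 with 1 sample left out in turn. The medians were -0.02 at day 0 and 0.27 at day 3. With the block within each day, 7 were lower and 6 higher at day 0, and 3 were lower and 8 higher at day 3. *Cdh3* lost its day 0 call without WT d0 replicate 1 (edgeR adjusted p = 0.0621) or KO d0 replicate 2 (edgeR adjusted p = 0.0763), and *Jup* its day 3 call with no replicate block (edgeR adjusted p = 0.113).

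Of 11 genes for epithelial serine proteases, their inhibitors, trafficking and splicing, all tested, 3 were lower and 2 higher in KO d0, and 4 were higher and none lower in KO d3. The 3 were *Lsr* (angulin-1), *Esrp1*, an epithelial splicing regulator, and *Prss8* (prostasin). *Prss8* lost its day 0 call with no replicate block (edgeR adjusted p = 0.0658), with limma-voom (adjusted p = 0.0974) and in 10 of the 12 fits with 1 sample left out (edgeR adjusted p up to 0.212, without WT d0 replicate 3). *Esrp1* fell by 1.73 (SE 0.37, edgeR adjusted p = 0.0094) at day 0, and without KO d0 replicate 3 its edgeR adjusted p was 0.0501. *Esrp2* was higher at day 3 by 1.73 (SE 0.17, edgeR adjusted p = 1.52e-04), as were *Spint1*, *Spint2* and *Prss8*, the first 2 being protease inhibitors that were higher at day 0 too. *Prss8* lost its day 3 call without KO d3 replicate 2 (edgeR adjusted p = 0.0758). With the block within each day the counts were 7 lower and 2 higher at day 0, and 8 higher and 1 lower at day 3. The medians were -0.64 and 0.55.

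Calls among transcription factors of epithelia lay in both directions, as they did among all genes. *Grhl2*, a Grainyhead-like factor known to activate *Cldn4* and *Cdh1*, had 42.1 ± 12.1 CPM in WT d0 and 19.4 ± 6.33 in KO d0, and 30.3 ± 1.65 in WT d3 and 61.8 ± 3.15 in KO d3. Its KO effect was higher at day 3 by 2.15 (SE 0.26, edgeR adjusted p = 0.00108). *Klf5* was higher in the KO on both days, by 2.23 (SE 0.18, edgeR adjusted p = 1.03e-04) and 1.20 (SE 0.19, edgeR adjusted p = 0.00133). *Tfap2a* was the other gene of this list that was lower at day 0. It lost that call with no replicate block (edgeR adjusted p = 0.154), with DESeq2 (adjusted p = 0.0621) and in 6 fits with 1 sample left out (edgeR adjusted p up to 0.155, without WT d0 replicate 3). At day 3 *Grhl1* and *Ovol2* were higher and *Ehf* and *Tfap2c* lower. *Ehf* passed the filter only through WT d3 samples, at 1.55 ± 0.97 CPM in WT d3 and 0.0356 ± 0.031 in KO d3. *Tfap2a* passed it only through WT samples. Of 11 tested, 1 was higher and 2 lower at day 0, beside 9.56% and 10.9% of all genes. At day 3 the counts were 4 and 2, beside 14.3% and 16.7%. The medians were -0.13 and -0.43. Under the block within each day the counts were 3 higher and 4 lower at day 0, and 4 and 4 at day 3.

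The 7 listed repressors of epithelial genes, which are known from EMT, gave 1 call at day 0, *Snai3*, lower by -0.97 (SE 0.24, edgeR adjusted p = 0.0202). That call was lost without WT d0 replicate 3 or KO d0 replicate 2 or 3 (edgeR adjusted p from 0.0767 to 0.0958), and with the block within each day 1 was higher and 1 lower. At day 3, 5 were lower and 1 higher in the KO. *Snai1* (Snail) had 25.9 ± 2.27 CPM in WT d3 and 2.57 ± 0.767 in KO d3, a change of -3.36 (SE 0.21, edgeR adjusted p = 1.37e-05). *Zeb2* had 40.3 ± 13.1 CPM in WT d3 and 11.5 ± 5.37 in KO d3, and *Zeb1*, *Twist1* and *Twist2* were lower too, while *Snai3* was higher. *Zeb1* lost its call without KO d3 replicate 2 (edgeR adjusted p = 0.0747) or 3 (edgeR adjusted p = 0.12). The median log2 fold change of the 7 was -1.76 at day 3, and -1.50 with 4 lower and none higher when WT d3 replicate 3 was left out. *Vim* (vimentin), the intermediate filament of mesenchymal cells, was lower too, at 216 ± 81.8 CPM in WT d3 and 30.3 ± 4.11 in KO d3 (edgeR adjusted p = 9.98e-06). Its means were higher in ESCs, at 315 ± 102 CPM in WT d0 and 418 ± 94.9 in KO d0. *Zeb1* likewise had 23.5 ± 4.15 and 41.7 ± 3.41 CPM there, against 14.8 ± 9.04 in WT d3. *Snai1*, *Zeb2* and *Twist1* had lower means in WT d0 than in WT d3, at 5.59 ± 2.03, 10.5 ± 3.8 and 2.48 ± 0.714 CPM in WT d0. Among the 10 other cytoplasmic filament genes, counted with *Vim*, 3 were lower at day 0 (*Nefl*, *Nefm* and *Nes*) and 3 lower and 2 higher at day 3. Those of neurons went both ways at day 3, with *Nefh* and *Ina* the 2 that were higher and *Nefl* among the lower. *Nefl* had 51.3 ± 17.9 CPM in WT d3 and 18.3 ± 4.74 in KO d3. The medians were -0.44 and 0.09. *Nefm* lost its call with limma-voom (adjusted p = 0.0831) and without WT d0 replicate 3 or any 1 of the KO d0 samples (edgeR adjusted p from 0.0662 to 0.122), and *Ina* without KO d3 replicate 2 or 3 (edgeR adjusted p = 0.0685 and 0.0582). Blocking within each day gave 4 lower and 1 higher at day 0, and 4 lower and 2 higher at day 3.

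**Figure D4:**
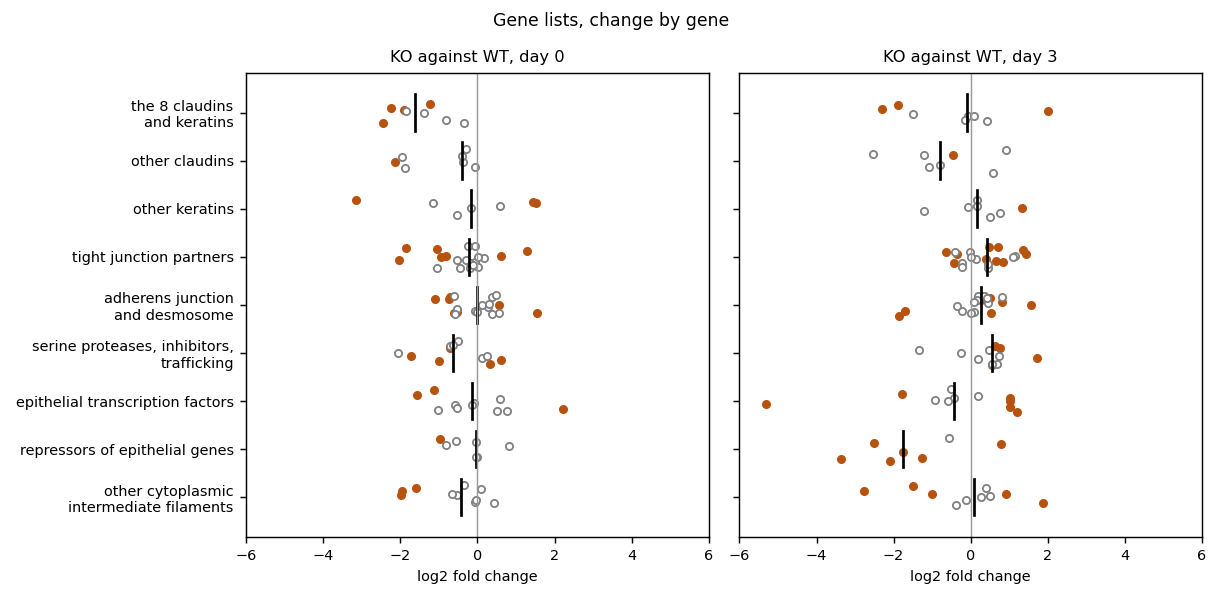
Log2 fold change between KO and WT of each tested gene (points) in the 8 claudins and keratins and the other gene lists, at day 0 and day 3, with filled points for an adjusted p below 0.05 and black bars for list medians. Vertical spread within a row is for legibility. The median of the repressors lies at -0.05 at day 0 and at -1.76 at day 3.

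Markers of other cell types moved with the groups as well, and their part in the results was not tested. At day 0 the summed level of 14 primitive and visceral endoderm markers was 96.2 to 192 CPM in WT and 251 to 344 CPM in KO, with 1 of 14 called higher and none lower. The called marker was *Lama1*, a laminin chain, which alone had 80.7 ± 27.7 CPM in WT d0 and 245 ± 21.8 CPM in KO d0 and makes up most of that sum. The sum of 9 trophectoderm markers was 104 to 176 CPM in WT d0 and 140 to 186 CPM in KO d0, and that of 10 feeder fibroblast markers 99.9 to 327 CPM and 156 to 433 CPM with none of 9 tested called (4 higher with the block within each day). At day 3 the trophectoderm sum was 423 to 512 CPM in WT and 67.4 to 163 CPM in KO, with 5 of 8 tested lower and *Elf5* below 1 CPM in every sample. Most of it was *Eomes*, at 404 ± 124 CPM in WT d3 and 109 ± 47.9 CPM in KO d3. The endoderm sum was 207 to 626 CPM in WT d3 and 61.4 to 162 CPM in KO d3, with 5 of 14 lower (5 lower and 2 higher without WT d3 replicate 3). All 7 markers of primitive streak and mesoderm were lower, but *Mesp1* and *Msgn1* passed the filter only through WT d3, the group where they were high. Surface ectoderm was close to absent, with *Trp63*, *Krt5*, *Krt14* and *Tfap2b* below 1 CPM in all samples, and 1 of 2 tested markers lower in KO d0 and none called in KO d3. Of 6 pluripotency markers 1 was higher in KO d0 and none lower, and their sum was 2616 to 3114 CPM in WT d0 and 3466 to 3851 CPM in KO d0. At day 3, 3 of the 6 were higher in the KO. The sum of 7 definitive endoderm markers was 598 to 1033 CPM in WT d0 and 91.2 to 234 CPM in KO d0, with 1 lower. That marker was *Trh*, which alone had 734 ± 246 CPM and 177 ± 82.6 CPM, while *Sox17*, *Gsc* and *Cer1* were below 1 CPM on average in both. The sum was 1003 to 1289 CPM and 393 to 889 CPM at day 3, with 6 markers lower. Most of that sum was again *Trh* (906 ± 88.7 and 612 ± 251 CPM), the 1 marker not called there. *Cer1* passed the filter only through WT d3. Of 6 neuroectoderm markers 3 were lower in KO d0, and 2 were higher and 1 lower in KO d3. Of the feeder markers 4 were higher and 1 lower in KO d3. Under the block within each day the counts, higher and lower, were 2 and 0 of the pluripotency markers at day 0 and 4 and 1 at day 3, 2 and 3 of the neuroectoderm markers at day 0 and 4 and 1 at day 3, and 0 and 2 of the definitive endoderm markers at day 0 and 0 and 7 at day 3. They were 2 and 3 of the trophectoderm markers at day 0, 2 and 0 of the primitive and visceral endoderm markers at day 0 and 1 and 5 at day 3, and 0 and 1 of the 2 surface ectoderm markers tested at each day. The lists overlap: *Eomes*, *Tfap2c*, *Sox17*, *Foxa2*, *Nes*, *Klf4*, *Tfap2a*, *Trp63*, *Grhl3*, *Krt5* and *Krt14* each stand in more than 1 of them.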

How the data were processed

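The deposited files hold counts per gene, which the authors made from 100-base single reads of polyadenylated RNA and did not normalize. Per the labels, adapters were trimmed with cutadapt 1.3, reads were aligned to GRCm38 with STAR 2.4.2a and reads per gene were counted with HTSeq 0.6.1. The labels name a stranded kit, but the strand setting of the counting is not given in the sources used here. Rows that name no gene (46.30 to 50.97% of all counts in the files, mostly in the row for alignments that are not unique) were left out. The 46517 genes were matched to GENCODE M21 (46005 found). Groups and replicate numbers came from the sample titles.

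Genes above 1 CPM in at least 1 sample (15673) were fitted with edgeR 4.0.16 (R 4.3.3, limma 3.58.1) by the quasi-likelihood test, with TMM scaling, 4 groups and the replicate number as a block, since a factor for batch is part of the study's model. The Benjamini-Hochberg adjustment ran over every gene tested, and a gene was called at an adjusted p below 0.05. Standard errors were derived from the log2 fold change and the F statistic. Nothing in the labels says whether replicates came from separate cultures, so p-values measure the spread between these samples. No 2 samples of a group agreed within sampling noise. Deviations from the group means of WT and KO samples with the same number and day were correlated (6 pairs, r from 0.333 to 0.695), whereas same-numbered samples of different days were not (mean r -0.049 over 12 pairs), so the fit with the block within each day is given where it changes a call of the 8 genes or a list's count for KO against WT.

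The script was tested on simulated counts. The 8 genes, the gene lists and the marker lists were chosen with earlier results of these data known, and no list was tested as a set. Of the lists, the genes named are, per KO comparison, up to 4 called genes with the smallest adjusted p, and those that a count of 5 or fewer leaves to be named, except 1 that is not reported here. *Cdh1* at day 3 and the list genes given for the difference between the days were chosen after their values were seen. For each of the 8, the 3 genes with the highest Pearson r are named. Length is the union of annotated exons. Alternatives were no replicate block, the block within each day, only the samples of the 2 groups compared, limma-voom, DESeq2 1.42.0 without independent filtering and Cook's cutoff, RLE scaling, no filter, at least 10 counts in every sample, an added minimum of 1 for the log2 fold change, and each sample left out. Tables and figures were made with Python 3.11.15, pandas 2.3.3, scipy 1.17.1 and matplotlib 3.10.9.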

Additional observations from a re-analysis of the deposited data

Results flagged for a closer look

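The effect of the KO differed between the days, by the test of the difference itself, for *Cldn7* (2.53 higher at day 3 on the log2 scale), *Krt18* (2.10 higher) and *Cldn6* (1.66 higher). In each of the 3 the KO was lower than WT at day 0 and did not pass the test at day 3. *Krt18* kept its call whichever sample was left out, with an edgeR adjusted p of at most 0.0401, whereas that of *Cldn6* reached 0.105 and that of *Cldn7* 0.0764.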

How the results depend on the processing

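Of 771 refitted log2 fold changes of the 8 genes, 677 kept their direction and their side of the threshold, 40 lost a call, 28 gained one and 26 changed sign. The number of genes called ranged, with 1 sample left out in turn, from 3 to 5 at day 0, 1 to 4 at day 3, 3 to 6 between the days in WT, 4 to 6 in KO and 1 to 4 for the difference between the days. With the replicate block within each day the last count was 5, and the calls this block changed stand beside the results. No value that changed sign was called. The KO effect on *Cldn3* at day 3 was 0.05 with the replicate block within each day, 0.06 with only the samples of the 2 groups and 0.09 with limma-voom. The difference between the days for *Krt8* was -0.04 with no replicate block and -0.00 with at least 10 counts in every sample. With 1 sample left out in turn, the KO effect ranged from -0.88 to 0.49 for *Cldn4* at day 0, and at day 3 from -0.57 to 0.57 for *Cldn3*, -0.29 to 0.48 for *Cldn7* and -0.42 to 0.44 for *Krt18*. The difference between the days ranged from -0.29 to 0.62 for *Krt8* and -1.23 to 0.66 for *Krt19*, and the change in KO over the days from -0.20 to 0.87 for *Krt7* and -0.38 to 1.14 for *Krt19*. The cause was not tested. Of the refitted values of the named list genes, 931 kept their call and 41 lost it, among them *Prss8* and *Tfap2a* at day 0. *Cldn3* and *Krt7* rested on the fewest reads, at most 214 and 93 in a sample.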
